A study of Mus musculus and Homo sapiens with 10 samples.

Results

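The subject is the set of CTCF peaks on human chromosome 6 in HEK293T cells, and within it the stretch from 25 to 34 Mb, which carries the major histone gene cluster, olfactory receptor genes and the HLA genes. Members were the intervals on chromosome 6 of at most 20 kb in the deposited CTCF peak list. They numbered 742 of 10912 intervals in the whole list, and 51 of them had their midpoint in the 25-34 Mb window (hg38) against 691 in the rest of the chromosome. The rule used chromosome, position and width, so the upper limit on width is not a finding.

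HEK293T is an established human cell line of embryonic kidney origin. The study had 10 samples in 8 groups, of which 3 samples were HEK293T: 2 with CTCF fused to DamN126A and 1 with DamN126A alone, all read by Nanopore-DamID after doxycycline induction of the Dam protein, with no other treatment named. The other 7 samples were mouse N2A cells and play no part here. The CTCF list gives positions only. It does not say which of the HEK293T samples entered it or how DamN126A alone was set against them, so there is no value per sample, no spread between replicates and no sequencing depth behind a peak, and every comparison below is a description without a test.

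CTCF is a zinc finger protein that binds DNA and halts the cohesin ring as it extrudes chromatin, so that pairs of CTCF sites often mark the feet of chromatin loops and the borders between domains. In DamID the bacterial enzyme Dam, tethered to the protein of interest, methylates adenine in GATC sequences nearby. DamN126A carries a substitution in Dam that is used to lower methylation away from the tethered protein. A DamID interval therefore spans a neighbourhood of GATC sites rather than the CTCF motif itself. The histone cluster supplies the replication-dependent histones of S phase and shares its stretch with tRNA, butyrophilin and zinc finger genes. The HLA region encodes the molecules that present peptides to T cells. Along the window, in rising coordinates, the usual gene order is histone genes first, then olfactory receptor genes, then HLA-C and HLA-B, the class III genes such as TNF and the complement genes, and last the class II genes such as HLA-DRA and HLA-DPB1. This order is textbook background: no human annotation was used, so peaks were not assigned to single genes.

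Across chromosome 6 the 742 peaks ran from 408034 to 170583968, a span of 170.2 Mb, at 4.36 peaks per Mb. That placed chromosome 6 at rank 8 of the 23 chromosomes in the list, and the other 22 chromosomes together held 3.64 peaks per Mb. The widest members measured 19103, 19306 and 19694 bp, and the narrowest intervals past the limit measured 20238, 20293 and 20458 bp. In all 19 intervals of chromosome 6 were wider than 20 kb and were left out.

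The 25-34 Mb window held 5.67 peaks per Mb and the rest of the chromosome 4.29, a ratio of 1.32 (exact 95% binomial interval 0.974 to 1.76). The interval includes 1, so a difference in density over the window as a whole was not resolved by the counts. The peaks were spread very unevenly inside it. By 1 Mb bins from 25 Mb upward the counts were 5, 13, 18, 3, 0, 0, 2, 2 and 8. The bins from 26 to 28 Mb, which cover most of the histone cluster, thus held 31 of the 51 peaks (60.8%), at 15.5 per Mb or 3.62 times the density of the rest. The bins from 29 to 33 Mb, which take in most of the HLA genes, held 4 peaks, or 1 per Mb and 0.233 times the density of the rest. The last bin, at 33-34 Mb, held 8 peaks, close to the 9 peaks in each of the bins next to the window at 24-25 and 34-35 Mb.

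**Figure D1:**
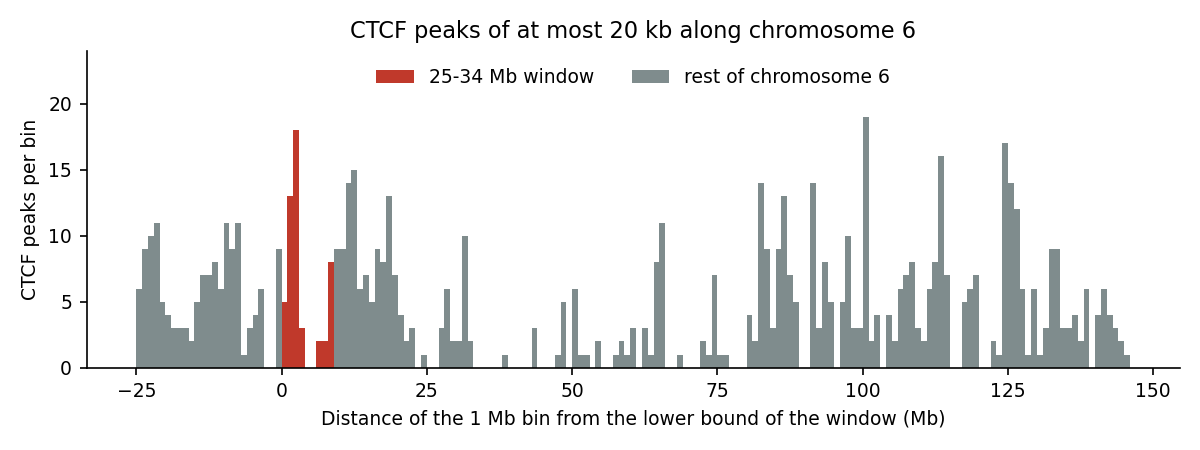
Number of CTCF peaks of at most 20 kb in each 1 Mb bin of chromosome 6, placed by the distance of the bin from the lower bound of the 25-34 Mb window; red bars are the window and grey bars the rest. The window holds a bin of 18 peaks, the second highest bar of the chromosome, and 2 empty bins.

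Of the 171 bins of the chromosome, the bin at 27-28 Mb had the second highest count after 19 peaks at 125-126 Mb, and the bin at 26-27 Mb shared rank 10 with 2 bins outside the window. In the rest of the chromosome 10 of 162 bins (6.17%) held 13 or more peaks, the count of the lower of those bins. Empty bins were about as frequent inside as outside, 2 of 9 (22.2%) against 39 of 162 (24.1%), and the median count per bin was 3 in both. With the fullest bin left out of the window and of the rest alike, at 27-28 and 125-126 Mb, the ratio of densities was 0.983. A lower ratio follows in part by construction, since 1 of 9 bins weighs more than 1 of 162.

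The window had also been divided at 29 Mb, and its lower and upper parts departed from the rest in opposite directions. They hold the same peaks as the bins above, so this is no separate result. The lower part, 25 to 29 Mb, held 39 peaks (76.5% of the window's peaks), at 9.75 per Mb and 2.27 times the rest. The upper part, 29 to 34 Mb, held 12 peaks, at 2.4 per Mb and 0.56 times the rest. Of these 12, 8 lay at 33-34 Mb, where the density was 1.87 times the rest. Median widths were 5558 bp in the lower part and 4772 bp in the upper part.

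The first peaks of the window were few and apart. They lay at chr6:25314427-25318639, chr6:25343454-25344544 and chr6:25717540-25721004, the second of them being the narrowest member of the window at 1091 bp. A gap of 373 kb separated the second from the third and 271 kb the third from the next. The nearest member below the window ended at 24781994, 532.4 kb before the first of these.

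The peaks then closed up. A pair at chr6:25992024-26002723 opened a series of 9 peaks that ended at 26221880. It included a peak of 11413 bp at chr6:26056663-26068075 and closed with a pair, chr6:26216362-26218453 and chr6:26218631-26221880, only 177 bp apart. By the usual gene order this is the lower of the stretches in which the histone genes of chromosome 6 are packed.

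A wide interval and a single peak, chr6:26381928-26384215, came before the longest run in the window. Runs were defined as neighbours with gaps of at most 10 kb. At chr6:26539996-26596733 a run of 5 peaks filled 40.2 kb of 56.7 kb, or 70.9%, with inner gaps from 1098 to 5676 bp. Its widest peak, chr6:26564246-26580826, measured 16581 bp, and its narrowest 1768 bp. The run was followed by 529 kb without a member, up to 27125977, although 1 interval of 22193 bp, too wide to be a member, lay in that gap.

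The densest megabase then began with a peak at chr6:27125978-27131535 and a pair at chr6:27154112-27178487, whose first peak was 16579 bp wide. The second longest run of the window followed at chr6:27212411-27251248: 4 peaks of 5905 to 11935 bp covered 34.2 of its 38.8 kb, and the smallest gap between them was 228 bp. A pair at chr6:27286003-27312898 held a peak of 13755 bp. Another pair, at chr6:27471425-27474994, was made of narrow peaks of 1405 and 1982 bp with 183 bp between them. In the gene order this megabase holds the second packed stretch of histone genes, with tRNA genes among them.

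The pair of narrow peaks bordered the broadest CTCF intervals of the chromosome. Between chr6:27494057 and 27676326, 3 intervals of 62843, 41110 and 49227 bp covered 153.2 kb of 182.3 kb. They were the widest of all 761 intervals on chromosome 6 and, being over 20 kb, are not members. With the intervals of 30995 bp at chr6:26311683-26342677 and 22193 bp at chr6:26743818-26766010, the window held 5 of the 19 wide intervals, all at 26-28 Mb. Wide intervals made up 8.93% of the 56 intervals in the window and 1.99% of 705 in the rest. As 3 of the 5 in the window lie within 182.3 kb, they are not independent counts, and the difference was not tested. The width limit thus took 206.4 kb out of the window, beside 346 kb that its 51 members cover, and the counts for 26-28 Mb leave these loci out.

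Members resumed directly above the wide intervals with a peak of 13663 bp at chr6:27681817-27695479. A pair at chr6:27783679-27810297 filled 96.5% of 26.6 kb with peaks of 15799 and 9879 bp. The closest neighbours of the whole window were chr6:27894212-27897109 and chr6:27897188-27902080, 78 bp apart. Between 28 and 29 Mb 3 more peaks followed, at chr6:28126572-28142282, chr6:28210521-28223020 and chr6:28396108-28400931. The first 2 were broad, at 15711 and 12500 bp.

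**Figure D2:**
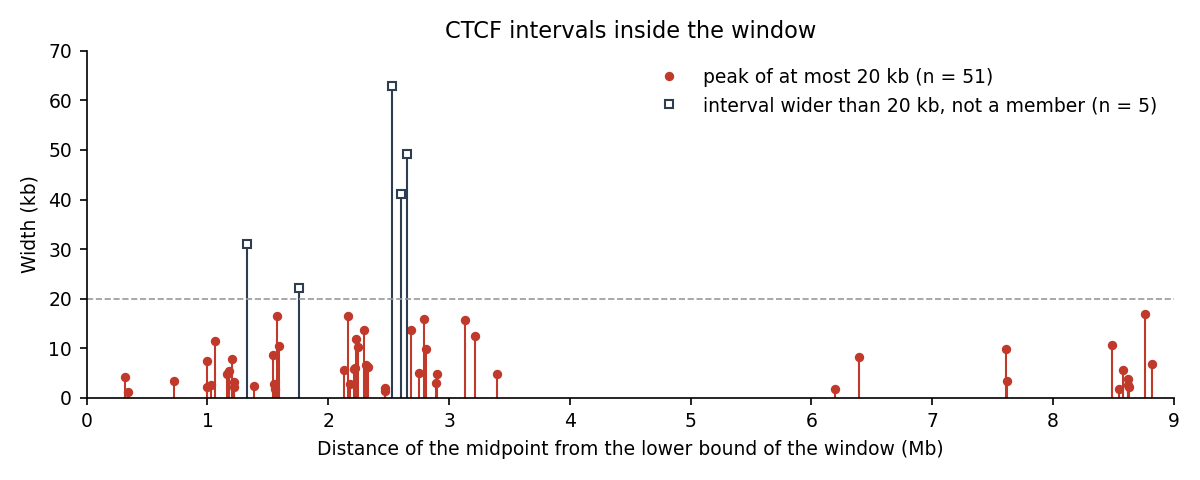
Width in kb of each CTCF interval in the window against the distance of its midpoint from the lower bound at 25 Mb; red circles are the 51 members, open squares the 5 intervals wider than 20 kb, and the dashed line marks the limit. Peaks crowd between 1 and 3 Mb from the bound, all 5 wide intervals lie there, and long stretches from 3.4 Mb onward are empty.

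The peak at 28.4 Mb opened the longest gap of the window. No member, and no wider interval, lay from 28400932 to 31196799, a gap of 2.8 Mb. It was the seventh longest of the 741 gaps between members on chromosome 6, whose longest was 5.83 Mb. The next gaps by length were 1.21 Mb, from 31397188 to 32608883, at rank 27, and 864 kb, from 32622701 to 33487148, at rank 45, and neither held a wider interval. In the usual gene order the second of these gaps falls on class III genes with the start of class II. The third takes in the remainder of class II but is not confined to it. Together the 3 gaps made up 4.87 Mb, or 54.1% of the window.

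Only 4 peaks stood between these gaps. They were chr6:31196800-31198676 (1877 bp), chr6:31389051-31397187 (8137 bp), and the neighbours chr6:32608884-32618735 (9852 bp) and chr6:32619333-32622700 (3368 bp), which were 597 bp apart. By the gene order the first 2 lie on either side of HLA-C and HLA-B, 190 kb from each other, and the neighbours lie in class II. With no reads or scores in the list, the possible reasons for an empty stretch cannot be told apart. Methylation by the CTCF fusion may be absent, no higher than with DamN126A alone, or under an unknown threshold. The stretch may also have been poorly read or mapped.

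Peaks came back at the upper end. From 33487149 to 33822702 there were 8 members with a median gap of 33.1 kb. They included a run of 3 at chr6:33618823-33631989, with peaks of 2183 to 3872 bp, and the widest member of the window, chr6:33755775-33772717, at 16943 bp. The first member above the window started 232 kb further on, at 34054799.

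Spacing in the window was short for most neighbours and very long for a few. The median of its 50 gaps was 28 kb (95% order-statistic interval 10.2 to 55.4), against 70.2 kb (58.3 to 79.1) for 689 gaps in the rest of chromosome 6 and 56.9 kb (54.1 to 59.8) for 9843 gaps on the other chromosomes. The ratio of the medians was 0.399. The order-statistic intervals of window and rest do not overlap, but they treat neighbouring peaks as independent and are too narrow. The difference was not tested. The quartiles were 4.55 and 133 kb in the window and 12.9 and 213 kb in the rest. Mean gaps, which the empty stretches pull up, were closer, at 163 and 228 kb. With a width limit of 10 kb the ratio of medians was 0.432, while at 5 kb the direction turned and it became 1.2. The 5 kb limit lies below the window's median width of 5558 bp, so it left out most of its members. Leaving out only members of 5 to 10 kb was not tried.

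Gaps of at most 10 kb made up 17 of 50 in the window (34%, Wilson 95% interval 22.4 to 47.8%), 154 of 689 in the rest (22.4%, 19.4 to 25.6%) and 2504 of 9843 elsewhere (25.4%, 24.6 to 26.3%). The intervals overlap, so a higher share of near neighbours was not resolved. Gaps under 1 kb, from 78 to 941 bp, made up 8 of 50 in the window (16%, Wilson 95% interval 8.34 to 28.5%), 9.43% in the rest and 9.89% elsewhere. Of these 8, 6 were at 26-28 Mb, where 30 of the 50 gaps lie. Runs joined 28 of the 51 peaks (54.9%), against 38.4% of peaks in the rest and 42.6% on the other chromosomes. The window had 8 runs of 2 peaks, 3 runs of 3 or more and 23 single peaks. Its longest run, of 5 peaks, was shorter than the longest in the rest, of 6, and on other chromosomes, of 9. These maxima come from 51, 691 and 9865 peaks, and a larger set has more room for a long run. Runs of 3 or more held 23.5% of peaks in the window (12 of 51), 14.6% in the rest and 18.9% on other chromosomes, which was not tested.

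**Figure D3:**
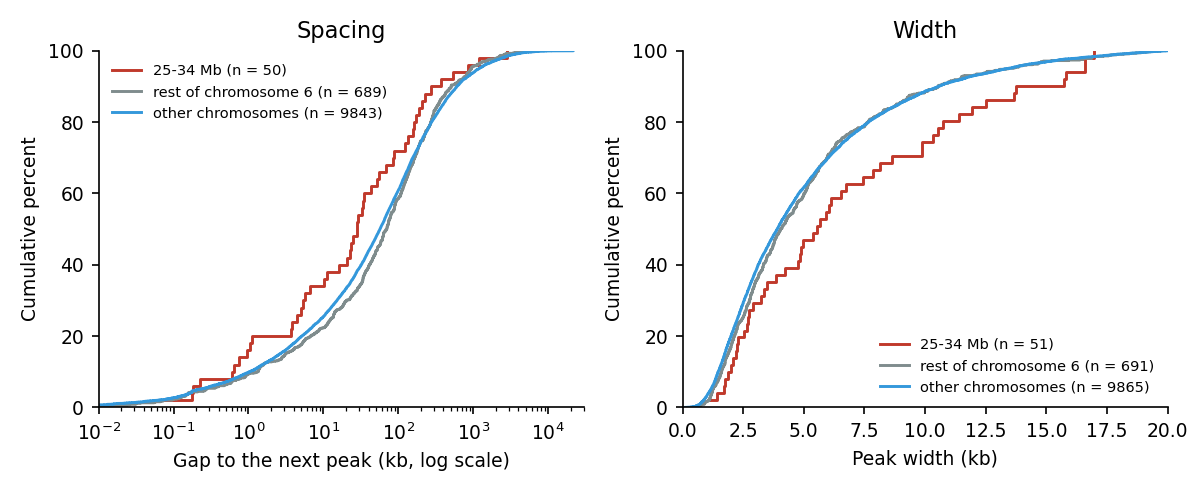
Cumulative percent of gaps between neighbouring peaks (left, kb, log axis, gaps under 10 bp drawn at 10 bp) and of peak widths (right, kb) for the window, the rest of chromosome 6 and the other chromosomes. The red curve of the window lies to the left for gaps (median 28 kb) and to the right for widths (median 5558 bp), while the other curves run close together.

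Peaks in the window were broader by the median, 5558 bp (95% order-statistic interval 3872 to 7423) against 4046 bp (3780 to 4391) in the rest and 3900 bp (3821 to 3981) on the other chromosomes. The ratio of window to rest was 1.37, and the intervals of the medians overlap between window and rest. The lower quartiles were near each other, 2714 bp in the window and 2485 bp in the rest, and the upper quartiles apart, 10100 and 6533 bp. The distributions parted at the broad end. Members of 10 kb or more made up 13 of 51 (25.5%, Wilson 95% interval 15.5 to 38.9%), 79 of 691 in the rest (11.4%, 9.27 to 14%) and 1121 of 9865 elsewhere (11.4%, 10.8 to 12%). Peaks under 2 kb made up 11.8% and 17.1% in window and rest. Members covered 3.84% of the bases of the window and 2.22% of those of the rest.

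The broad peaks of the window were mostly where its peaks were. Of the 10 widest members of the window, which ran from 11413 to 16943 bp, 7 lay at 26-28 Mb, 2 at 28-29 Mb, 1 at 33-34 Mb and 0 at 29-33 Mb, beside 60.8% of all members of the window at 26-28 Mb. Members of 10 kb or more were 9 of 31 there and 4 of 20 elsewhere in the window. At 26-28 Mb the median width was 5905 bp (3250 to 9879, n = 31) and the median gap 13.6 kb, with 13 of 30 gaps of at most 10 kb. The other 20 peaks of the window had a median width of 4519 bp (2667 to 8137). These order-statistic intervals overlap. Width, gap and count all depend on how near signals were joined into 1 peak, which the list and the labels do not state.

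The window was then set beside windows of equal length. On a grid of 9 Mb through 25 Mb, chromosome 6 had 17 other complete windows, with 4 to 82 peaks and a median of 43. The 51 peaks of the histone and HLA window were exceeded in 4 of them. The next window up, 34-43 Mb, held the most, 82, with a median width of 3436 bp and a median gap of 46.6 kb. The next window down, 16-25 Mb, held 43 with a median width of 3837 bp and a median gap of 81.4 kb. The histone and HLA window lay above both neighbours in median width and below both in median gap. Its short median gap does not describe all of it. The median was 13.6 kb over 30 gaps at 26-28 Mb and 43.3 kb over 11 gaps at 29-34 Mb.

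Over the whole window the median gap of 28 kb was below that of all 17 other windows of the chromosome, which ran from 40.6 to 444 kb. Its median width was exceeded by 2 of them, and its longest gap, 2.8 Mb, also by 2. The share of peaks in the fullest pair of 1 Mb bins, 60.8%, was exceeded by 6. Over all chromosomes, 117 other windows held at least 30 peaks: 20 had a shorter median gap, 7 a larger median width, 7 a longer longest gap and 16 a larger share in their fullest pair of bins. Moved in steps of 1 Mb along chromosome 6, a 9 Mb window had more than 51 peaks at 48 of 161 positions, with a maximum of 86 at 35-44 Mb.

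**Figure D4:**
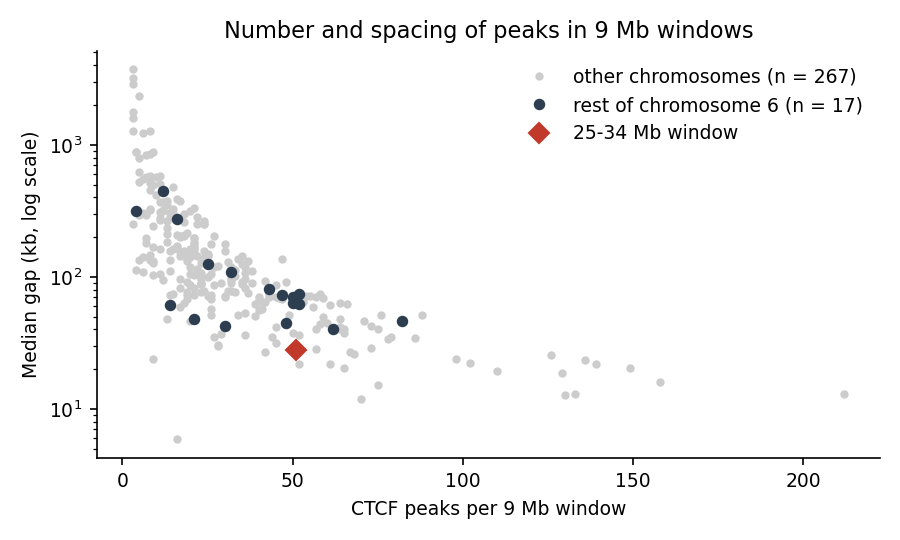
Median gap between neighbouring peaks (kb, log axis) against the number of peaks in complete 9 Mb windows with at least 3 peaks. The window at 25-34 Mb (red diamond, 51 peaks, 28 kb) lies below the other 17 windows of chromosome 6 (dark circles) and within the range of the 267 windows of other chromosomes (grey).

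Chromosome 6 is uneven beyond this window. Below its widest gap, a stretch of 5.83 Mb that ended at 63629732, the density outside the window was 5.79 peaks per Mb, and the window did not stand above it, at a ratio of 0.979. Against only those 1 Mb bins of the rest that hold a peak, 123 in number, the ratio was 1.01. The window kept its full 9 Mb there, with its 2 empty bins. That ratio is thus lowered by construction and does not show how the 2 compare with empty bins left out of both. Median gap and median width kept their direction against the peaks below the widest gap, at ratios of 0.471 and 1.39.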

How the data were processed

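The authors deposited the CTCF peaks as 1 list of 3 columns, chromosome, start and end in bp, with no score, read count or sample name. The builds hg38 and mm10 and the tools bedtools, deepTools, SAMtools and minimap2 are listed, per the submitters' processing notes, with no role for any of them; the human cell line puts the list on hg38. For the peak caller, its thresholds and its use of the samples, the sources used here give nothing.

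Starts were converted to 1-based positions. Peaks of at most 20 kb were placed by midpoint, and a gap was the distance from the end of one peak to the start of the next, both in or both outside the window. Lengths ran from the first to the last peak of a chromosome. All intervals (exact binomial, Wilson, binomial order statistics for medians, 95%) cover counting error only and treat neighbouring peaks as independent, so they are too narrow. The measures were tested on simulated peaks, placed independently and uniformly at random with known ratios between window and rest. Real peaks were clustered: the variance of counts per 1 Mb bin was 6.84 times the mean in the window and 4.25 times in the rest. The simulation therefore did not test the intervals under such clustering. Members, windows and lists were chosen with earlier results of these data known. The 26-28 and 29-33 Mb parts, the 10 kb width class, the 13-peak bin count and the fullest pair of bins were chosen after their values were seen. Named peaks were the 10 widest, those of the runs with the most peaks and the ends of the 5 longest gaps; the others named were added after their values were seen. The planned gene and sequence measures were not run, as no human genome or annotation was used. Scripts ran in Python 3.11.15 with scipy 1.17.1, pandas 2.3.3, numpy 2.4.6 and matplotlib 3.10.9.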

Additional observations from a re-analysis of the deposited data

How the results depend on the processing

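The ratio of peak densities depended on what the window was set against. It turned below 1 against peaks under the widest gap of the chromosome (0.979), for the bounds 29 to 34 Mb (0.56) and without the fullest bin of window and rest (0.983, a setting added after the data were seen). For the bounds 25 to 29 Mb it rose to 2.27. In the other 8 of 12 settings it stayed above 1 and within the interval of its main value. The ratio of median gaps turned at a width limit of 5 kb (1.2) and kept its direction in the other 9 of 10 settings. The ratio of median widths turned at that limit too (0.977) and kept its direction in the other 8 of 9, the limit itself bounding width. The share of near gaps was 62% with 50 kb as the distance and stayed within its interval in the other 11 of 12 settings. The settings were other width limits, placement by overlap, other bounds, other lengths for the rest, merging within 5 kb and other near distances. Distances from peaks to genes were not run. Placement by overlap could change no result, since no member crossed a bound of the window. Leaving out peaks above the widest gap could not change the share of near gaps, which uses the window alone. A larger near distance can only raise that share. The share in the rest was not recomputed, so no setting shows whether its contrast with the window holds. Counting only occupied bins shortened the rest but not the window. The counts of settings above include these. No alternative over samples was possible, as 0 samples have values of their own. With no reads in the list, depth and its limits are unknown.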

Other observations

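Other bins of chromosome 6 reached counts like those at 26-28 Mb. The fullest, at 125-126 Mb, held 19 peaks and 0 intervals wider than 20 kb. Those at 149-150 and 138-139 Mb held 17 and 16 peaks with 0 and 1 wide intervals. Of the 12 bins with 13 or more peaks, those at 27-28 and 26-27 Mb held 3 and 2 wide intervals, and of the 10 outside the window 9 held 0 and 1 held 1; this comparison was chosen after the values were seen and was not tested.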
